A study of Homo sapiens with 12 samples.

Results

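The 89 array probes for the miRNAs of the imprinted DLK1-DIO3 region on chromosome 14 were examined among 2565 human miRNA probes. They were chosen by the probe name alone, as every arm of 46 miRNA families of the region. The rule used no measured value, though earlier results of these data were known when the members were chosen. All samples were KYSE150 cells, an established line of human oesophageal squamous cell carcinoma, kept in Ham's F12 medium with 2% fetal bovine serum. The 6 control arrays held RNA of cells without galectin-9, and the 6 galectin-9 arrays held RNA of cells given this galactoside-binding lectin at 100 nM for 6 h. Total RNA carried the dye Cy5, and each sample had its own single-colour 3D-Gene array. The study looked for miRNAs linked to the effect of galectin-9 on such tumour cells. The samples model 1 cell line at 1 dose and 1 time. Since no label tells if the replicates were grown separately, p-values reflect spread among samples that could be technical repeats.

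A mature miRNA is cut from a hairpin, whose left and right arms give the 5p and the 3p product. It guides an Argonaute protein to messenger RNAs that pair with its seed, bases 2 to 8. In the DLK1-DIO3 region the protein genes DLK1 (a Notch-like membrane protein that holds back adipocyte differentiation), RTL1 (a retrotransposon-derived gene needed in the placenta) and DIO3 (a deiodinase that inactivates thyroid hormone) are expressed from the paternal chromosome. The long non-coding RNAs and the miRNAs come from the maternal one. The miRNAs are known for high levels in embryo, placenta and brain. Within RTL1 several of them lie antisense to the gene, and in mouse they guide cleavage of its transcript.

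In the RefSeq annotation of GRCh38.p14, 88 of the 89 members matched a mature sequence, all on the plus strand of chromosome 14. They run from miR-770-5p, which starts at base 100852409, to miR-656-3p, which ends at base 101066786. The miR-770-5p sequence lies within the span of MEG3 (chr14:100826108-100861026). The 10 probes of miR-431, miR-433, miR-127, miR-432 and miR-136 lie within RTL1 (chr14:100879753-100903722), which is on the minus strand. Both arms of miR-370 lie within the span of MEG8 (chr14:100889649-100999113). The 71 probes from miR-379 to miR-656 lie between the end of MEG8 and the start of MEG9 at base 101069911. Exon and intron limits of these non-coding genes were not used here.

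Sequences are given 5′ to 3′ with the seed in capitals. The first set is shown because these five-prime arms share seeds and each was above the detection limit on all 12 arrays. The seed GGUUGUC was held by 3 of them and the seed UGGUUAU by 2.
miR-494-5p: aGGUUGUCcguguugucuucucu
miR-323b-5p: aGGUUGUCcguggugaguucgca
miR-410-5p: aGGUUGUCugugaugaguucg
miR-487a-5p: gUGGUUAUcccugcuguguucg
miR-487b-5p: gUGGUUAUcccuguccuguucg

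The second set holds close relatives that differed in how often they were detected. The first pair is 12 against 5 arrays, the second 12 against 5 and the third 9 against 3.
miR-1185-1-3p: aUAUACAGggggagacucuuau
miR-1185-2-3p: aUAUACAGggggagacucucau
miR-487b-3p: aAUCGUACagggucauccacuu
miR-487a-3p: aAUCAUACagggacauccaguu
miR-300: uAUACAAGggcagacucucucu
miR-381-3p: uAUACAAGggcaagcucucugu

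The third set holds widely studied members that were found on at most 4 arrays.
miR-379-5p: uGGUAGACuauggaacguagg
miR-411-5p: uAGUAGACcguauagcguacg
miR-376a-3p: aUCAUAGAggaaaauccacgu
miR-376b-3p: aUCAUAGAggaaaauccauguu
miR-376c-3p: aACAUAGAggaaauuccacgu
miR-410-3p: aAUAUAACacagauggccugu
miR-495-3p: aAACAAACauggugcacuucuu

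The fourth set holds 3 members found on all arrays, among them miR-494-3p, which stood farthest above the detection limit.
miR-494-3p: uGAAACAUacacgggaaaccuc
miR-370-3p: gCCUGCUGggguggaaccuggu
miR-134-5p: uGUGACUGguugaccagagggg

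The last set holds the 6 members with the lowest p-values for a lower intensity with galectin-9.
miR-770-5p: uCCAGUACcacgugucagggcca
miR-431-3p: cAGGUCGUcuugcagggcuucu
miR-127-3p: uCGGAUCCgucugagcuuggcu
miR-432-5p: uCUUGGAGuaggucauugggugg
miR-654-3p: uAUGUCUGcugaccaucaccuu
miR-381-5p: aGCGAGGUugcccuuuguauau

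These are the annotated RefSeq sequences. The sequences of the array probes were not used here, and how well a probe tells close relatives apart was not tested.

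A miRNA was called detected on an array where its raw intensity exceeded the mean of the blank spots by more than 2 SD of those blanks, which is the limit the files themselves use. The share of all human probes detected ranged from 36.4% on control 6, with 934 probes, to 79.7% on galectin-9 array 1, with 2045 probes. Control 6 stood apart through this low number and through its high background. Markers of epithelium were present, with 5 of 6 (the miR-200 family, miR-203a and miR-205 among them) on all 12 arrays and the sixth, miR-944, on 11. Of markers of other cell types, 1 of 5 for mesenchyme, 2 of 4 for neurons, 0 of 4 for pluripotent cells and 0 of 4 for blood cells were on all 12 arrays, beside 34.7% of all human probes. On at least 6 arrays were 6 of 6 for epithelium, 4 of 5 for mesenchyme, 2 of 4 for neurons, 3 of 4 for pluripotent cells and 3 of 4 for blood cells, with miR-199a-5p, miR-142-3p and miR-150-5p on 11, beside 67.6% of all human probes. The arrays came in 3 sets of 4 that share a code in their file names, taken here as slides, each with 2 control and 2 galectin-9 arrays. The number at the end of the file names was taken as the position on the slide, which no label states. By this number, control arrays sat at positions 1 and 3 and galectin-9 arrays at positions 2 and 4. Treatment and odd or even position therefore cannot be told apart.

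Most chromosome 14 miRNAs were near or below the detection limit in these cells. Of the 89 members, 20 (22.5%) were detected on all 12 arrays, 29 on 6 to 11, 35 on 1 to 5 and 5 on none. The corresponding share of all human probes on no array was 7.49%, and on all 12 it was the 34.7% given above. The member share was below the share of all probes on 12 of 12 arrays, with a ratio of the shares from 0.648 on control 6 to 0.902. The 5 members found on no array were miR-127-5p, miR-376c-5p, miR-376a-2-5p, miR-539-3p and miR-655-3p. Upstream of the end of MEG8, 13 of 18 probes (72.2%) were found on at least 6 arrays, and from miR-379 on 36 of 71 (50.7%), beside 67.6% of all human probes. Those on all 12 numbered 2 (11.1%) and 18 (25.4%). Each member found on 11 arrays was missed on control 6 alone, so the counts on all 12 depend on that array.

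**Figure D1:**
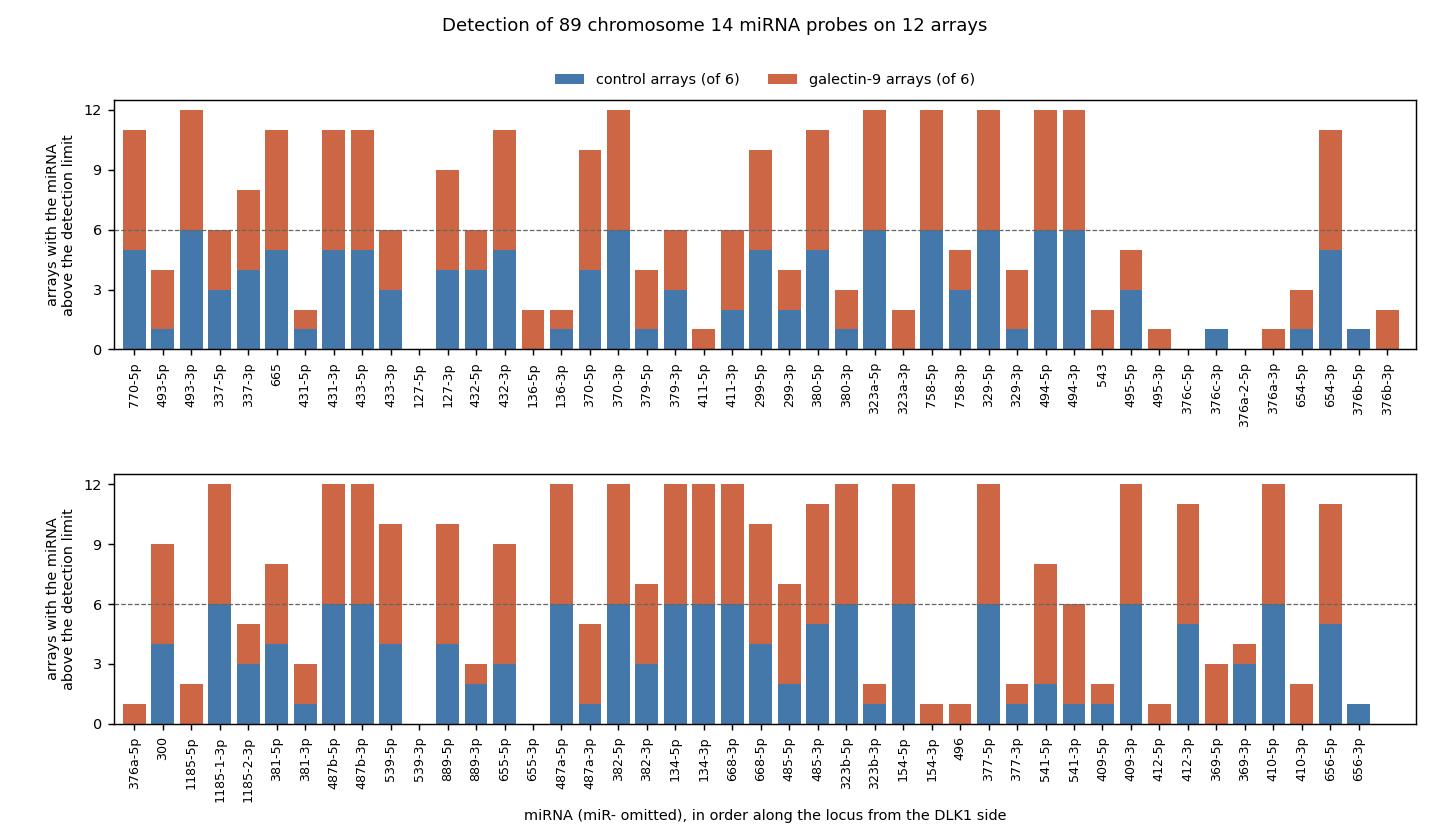
Number of arrays on which each of the 89 probes was above the detection limit (y axis, arrays), in the order of the locus (x axis, miRNA), with control arrays in blue and galectin-9 arrays in orange stacked on them. The dashed line marks 6 arrays, the minimum for testing, which 49 members reached. In the upper panel, bars of 12 are few before miR-323a-5p, and from there on bars of 12 and bars of 2 or less occur next to each other.

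Members that lie antisense to RTL1 were detected on part of the arrays only. Of these 10 probes, 6 (60.0%, beside the 67.6% of all probes) were found on at least 6 arrays, 0 on all 12 and 1 on none. miR-431-3p, miR-432-3p and miR-433-5p were found on 11 arrays each and were missed only on control 6. miR-127-3p, known in mouse as one of the guides that cleave the Rtl1 transcript, was found on 9 arrays, and its partner arm miR-127-5p on none. miR-432-5p and miR-433-3p were each found on 6 arrays, miR-431-5p on 2 and both arms of miR-136 on 2.

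On the MEG3 side of the region, miR-770-5p was detected on 11 arrays, miR-665 on 11, miR-493-3p on 12 and miR-370-3p on 12. From miR-379 on, members on all arrays were miR-323a-5p, miR-758-5p, miR-329-5p, both arms of miR-494, miR-1185-1-3p, both arms of miR-487b, miR-487a-5p, miR-382-5p, both arms of miR-134, miR-668-3p, miR-323b-5p, miR-154-5p, miR-377-5p, miR-409-3p and miR-410-5p. miR-134, which in rodent neurons limits the size of dendritic spines, was thus detected throughout. By contrast, miR-379-5p was found on 4 arrays, miR-654-5p on 3, miR-410-3p on 2 and miR-411-5p and miR-495-3p on 1 each. The miR-376 family, whose precursors are known to be edited from A to I in human brain, was almost absent from the calls. Its 7 probes gave 6 detections on 84 spots, and none was found on more than 2 arrays.

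The 2 arms of a hairpin were often detected unequally, in either direction. Of 39 hairpins with both arms on the array, the 5p probe was detected on more arrays for 19, the 3p probe for 16, and 4 were equal. Left out were miR-376a and miR-1185, which have probes named by hairpin copy. miR-1185-5p was on 2 arrays, miR-1185-1-3p on 12 and miR-1185-2-3p on 5. miR-376a-5p and miR-376a-3p were on 1 array each and miR-376a-2-5p on 0. For all other human hairpins with both arms the numbers were 292, 258 and 220 of 770. Both arms were on all 12 arrays for miR-494, miR-487b and miR-134. Large differences went either way. miR-323a, miR-323b, miR-154, miR-377 and miR-410 had the 5p arm on 12 arrays and the 3p arm on 1 or 2, whereas miR-409 had the 3p arm on 12 and the 5p arm on 2. miR-431 and miR-412 also had the 3p arm on 11 arrays and the 5p arm on 2 and 1.

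miR-494-3p was the member that stood far above the limit. Its background-subtracted intensity was lowest at 395.1, 661.5 in the median and highest at 728.6 on the control arrays, and 541.2, 654.9 and 780.6 on the galectin-9 arrays. These intensities are linear and not normalised, and the groups overlapped. The margin of a probe was taken as its background-subtracted intensity over 2 SD of the blanks of that array, so that a margin of 1 is the detection limit after subtraction. For miR-494-3p the median margin over the 12 arrays was 354, with a range from 165 to 520. Among the other 19 members on all arrays the highest median margin was 8.04, that of miR-370-3p. Of the 20, 7 had a median margin between 5 and 10 and 12 under 5. A median margin of at least 10 was reached by 321 of the 891 human probes found on all arrays, and by 1 of 20 members. A margin describes the certainty of the detection call and not the amount of RNA, since probes differ in brightness per molecule.

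Detection went with base composition. Members with more G and C in the mature sequence were found on more arrays (Spearman rho = 0.593 across 88 members, which share arrays and labelling). The other human probes gave rho = 0.516 across 2165 probes with a RefSeq sequence. The median share of G and C was 38.1% in the 5 members on no array, 40.9% in the 35 on 1 to 5, 52.0% in the 29 on 6 to 11 and 54.5% in 19 on all 12. Members were poorer in G and C than the other probes, with medians of 45.5% and 52.2%. In the composition class over 40% to 50%, 58.3% of 36 members and 64.7% of 674 other probes were on at least 6 arrays. Over 50% the shares were 83.3% of 30 and 85.2% of 1109. Up to 40% they were 9.09% of 22 members and 23.8% of the other probes. The shares on all 12 arrays were 0% and 10.2% up to 40%, 25% and 23.6% over 40% to 50%, and 33.3% and 50.4% over 50%, for members and other probes. Whether composition sets the brightness of a probe, its level in the cell or both was not tested.

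**Figure D2:**
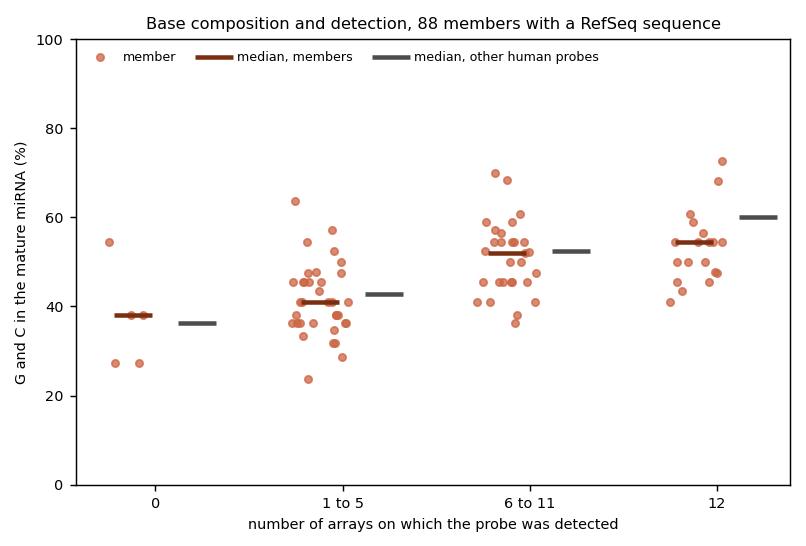
Share of G and C in the mature miRNA (y axis, percent) by the number of arrays with detection (x axis). Points are members, spread sideways for legibility, and bars are medians of members and of the other human probes, which rise from 38.1% to 54.5% and from 36.4% to 60.0%.

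Several members found throughout were close relatives in sequence. Among the 88 members there were 77 distinct seeds, and 21 members fell into 10 groups with a shared seed. In the first set of sequences above, miR-494-5p, miR-323b-5p and miR-410-5p shared a seed and were each on 12 arrays, as were miR-487a-5p and miR-487b-5p. Positions are counted from 1 at the 5′ end, with the base of the miRNA named first given first. miR-487a-5p and miR-487b-5p differ by C14U, U15C and G16C. The letters GUUNUC, read on the given strand and chosen after the values were seen, occurred in 8 of 88 members (9.09%) and in 38 of 2165 other probes (1.76%). The 8 members are all 5p arms, and 7 were on all 12 arrays, against 10 of the 38 other probes. They comprise the 5 sequences of the first set with miR-154-5p, miR-329-5p and miR-655-5p. Since the letters were chosen after the values were seen, these counts are a description and no test of a link with detection.

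A shared seed did not always go with equal detection. miR-1185-1-3p was on 12 arrays and miR-1185-2-3p, which differs by U20C, on 5. miR-300 was on 9 arrays and miR-381-3p, which differs by G13A, A14G and C21G, on 3. miR-487a-3p was on 5 arrays and miR-487b-3p, which differs by A5G, A13U and G20C and so in the seed, on 12. miR-376a-3p and miR-376c-3p, which differ by U2A and A14U, were on 1 array each. miR-379-3p and miR-411-3p, with U10C and U22C between them, were on 6 each.

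More members were detected on galectin-9 arrays than on control arrays, as were more human probes in all. Control arrays 1 to 6 held 51, 58, 59, 35, 40 and 21 detected members, and galectin-9 arrays 1 to 6 held 64, 54, 45, 43, 58 and 60. Control 6 was the lowest and the groups overlapped. The medians were 45.5 and 56 members, and 1635.5 and 1852 human probes. Without control 6 the control arrays ranged from 35 to 59. Of the 89 members, 43 were on more galectin-9 arrays, 9 on more control arrays and 37 on equally many. The same count over all human probes was not made, so these 3 numbers cannot be read as a trait of the members. On at least 3 more galectin-9 arrays were 6 members (6.74%), against 5.89% of all human probes. These were miR-541-5p with 2 control and 6 galectin-9 arrays, miR-541-3p with 1 and 5, miR-655-5p with 3 and 6, miR-485-5p with 2 and 5, miR-487a-3p with 1 and 4, and miR-369-5p with 0 and 3. They were named after their values were seen. In the fit of normalised intensities described below, the galectin-9 minus control log2 difference was 0.10 for miR-541-5p. It was -0.09 for miR-541-3p, -0.29 for miR-655-5p and -0.22 for miR-485-5p, with overlapping groups for each of these miRNAs. miR-487a-3p and miR-369-5p were on fewer than 6 arrays and were not fitted. Detection on more arrays thus did not always go with a higher mean intensity. No member was on at least 3 more control arrays, against 0.156% of all probes. The detection limit uses the SD of the blanks of each array. On control arrays 1 to 6 this SD was 0.99, 0.89, 0.84, 1.19, 0.93 and 1.59. On galectin-9 arrays 1 to 6 it was 0.75, 0.90, 0.99, 1.23, 0.75 and 0.75. The part that array quality has in these counts was not tested.

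**Figure D3:**
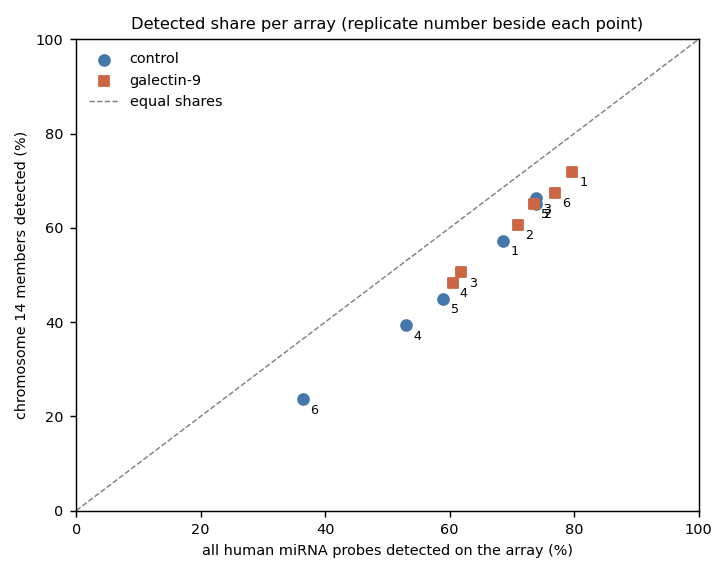
Share of the 89 members detected on each array (y axis, percent) against the share of all 2565 human probes detected on it (x axis, percent), with control arrays as circles and galectin-9 arrays as squares. All 12 arrays lie under the dashed line of equal shares, and control 6 is lowest on both axes.

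For the comparison of levels, background-subtracted intensities were quantile-normalised over all human probes, and a value below the limit was set to the lowest detected value of its array, called the floor here. Values below are log2 of these normalised intensities, and differences are galectin-9 minus control. No chromosome 14 miRNA passed the test for a change with galectin-9. Of the 49 members found on at least 6 arrays, 0 passed an adjusted p of 0.05 in either direction (limma, Benjamini-Hochberg over 1734 probes). The background was 0.173% of tested probes higher (3 probes) and 0% lower. The smallest adjusted p among members was 0.259. At an unadjusted p under 0.05, 6 members (12.2%) were lower and 0 higher, against 8.65% and 4.21% of all tested probes. The control and galectin-9 values overlapped for each of the 49 members, and were apart for 1.56% of tested probes.

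Among members on all 12 arrays, which contain no floor values, differences were small. Over these 20 the median difference was -0.04, with 11 below 0 (55.0%) and 9 above, and the 891 such probes had a median of -0.02, with 55.2% below 0. The differences ran from -0.34 for miR-134-3p to 0.24 for miR-410-5p, and the smallest adjusted p was 0.473 (limma, Benjamini-Hochberg). For 15 of the 20, the 95% interval lay within a 1.5-fold change either way. At an unadjusted p under 0.05 there were 0 of 20 in a fit to the 891 probes alone, against 8.64% lower and 8.75% higher. Over all 49 tested members the median was -0.13, with 36 below 0 (73.5%), and over all tested probes -0.07, with 63.3% below 0. These values depended on the floor: with 1 floor for all arrays, set at that of control 6, the members' median was 0, with 21 of 49 below 0 (42.9%), against 39.4% of all tested probes. Without normalisation the members' median was -0.00080. With the replicate number as a block, 0 of 49 members passed the adjusted threshold, beside 0.0577% of tested probes. At an unadjusted p under 0.05 the block gave 5 members lower (10.2%, against 9.11%) and 2 higher (4.08%, against 5.19%).

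miR-494-3p had log2 intensities of 8.96 at the lowest, 9.42 in the median and 9.52 at the highest on control arrays, and 8.92, 9.31 and 9.39 on galectin-9 arrays. The groups overlapped, and replicate 5 was lowest in both. The difference was -0.10 (95% interval -0.35 to 0.16), a galectin-9 over control ratio of 0.935 with an interval from 0.784 to 1.11 (adjusted p = 0.763, limma). It was 0.04 after median scaling and 0.11 without normalisation, so its sign turned with the scaling. In the normalised values it was lower with galectin-9 in 5 of 6 pairs, higher in 0 and equal in the pair of replicate 6.

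miR-370-3p, between the RTL1 and miR-379 stretches, lay at 3.73, 3.84 and 4.11 in control and 3.59, 3.80 and 4.10 in galectin-9 arrays (lowest, median and highest). The ranges nearly coincided, and the difference was -0.07 (95% interval -0.30 to 0.16). miR-487b-5p lay at 3.73, 3.90 and 4.05 and at 3.71, 3.80 and 3.91, with a difference of -0.07 (interval -0.26 to 0.11). miR-134-5p lay at 2.29, 2.56 and 2.99 and at 1.97, 2.43 and 2.98, with a difference of -0.12 (interval -0.53 to 0.29). These 3 groups of values overlapped throughout.

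The remaining members on all arrays also had overlapping groups. Below 0 were miR-134-3p (-0.34), miR-493-3p (-0.29), miR-154-5p (-0.28), miR-382-5p (-0.27), miR-377-5p (-0.13) and miR-409-3p (-0.12), with miR-487b-3p at -0.0030. Above 0 were miR-410-5p (0.24), miR-1185-1-3p (0.20), miR-494-5p (0.19), miR-487a-5p (0.15), miR-323b-5p (0.14), miR-668-3p (0.08), miR-758-5p (0.03), miR-323a-5p (0.03) and miR-329-5p (0.02). Each adjusted p was 0.473 or more.

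**Figure D4:**
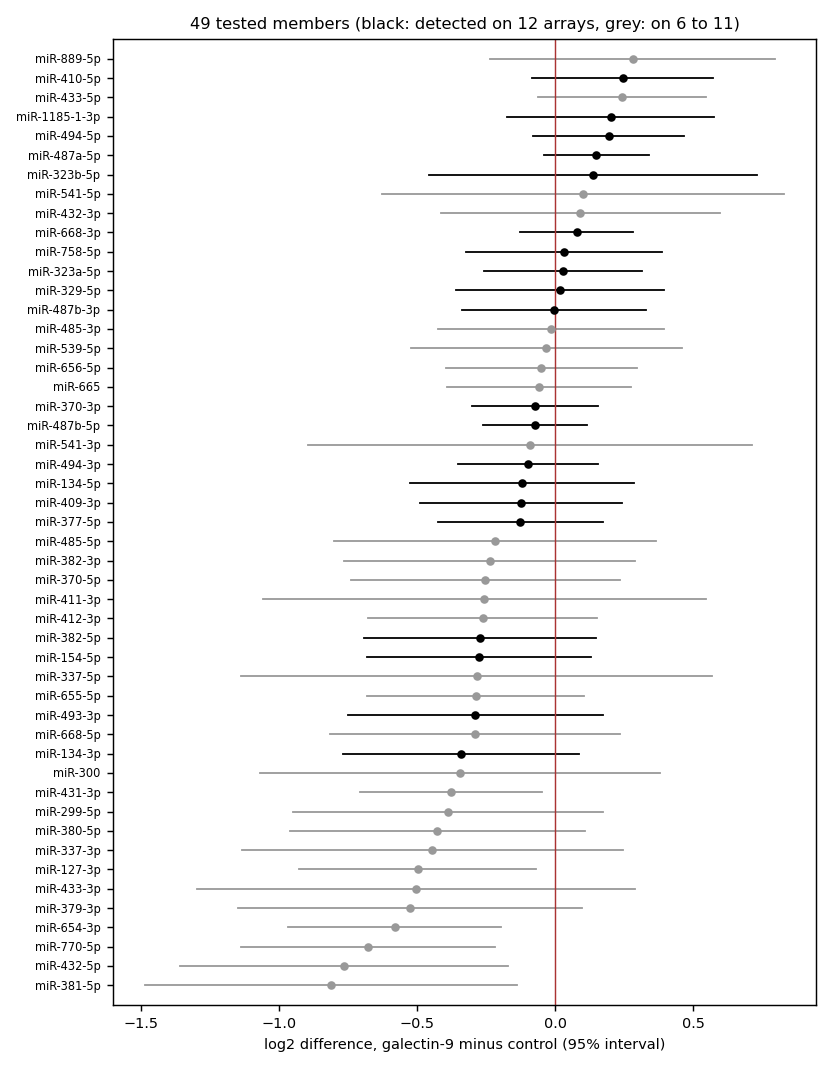
Difference of log2 intensity, galectin-9 minus control, with its 95% interval (x axis), for the 49 tested members (y axis). Members on all 12 arrays (black) run from -0.34 to 0.24 and those on 6 to 11 arrays (grey) from -0.81 to 0.28. The intervals of 6 grey members end below 0 before adjustment.

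The 6 lowest p-values for a decrease belonged to members that were not detected on control 6 and took its floor, 2.44, which was the highest floor of the 12 arrays. The lowest floor was -0.33, on galectin-9 array 1. On control arrays 1 to 6 the floors were 0.74, 0.32, 0.31, 1.64, 1.31 and 2.44. On galectin-9 arrays 1 to 6 they were -0.33, 0.57, 1.15, 1.23, 0.34 and 0.01. Floors thus tended to be higher on control arrays beyond control 6 alone. A difference that includes floor values also includes these differences between floors. miR-654-3p lay at 1.84, 2.34 and 2.60 on control arrays and 1.09, 1.75 and 2.11 on galectin-9 arrays, and was lower with galectin-9 in 6 of 6 equally numbered pairs. Its difference was -0.58 (95% interval -0.97 to -0.20, adjusted p = 0.259, limma). miR-770-5p lay at 1.35, 2.43 and 2.90 and at 1.46, 1.52 and 1.86, lower in 5 of 6 pairs. The galectin-9 values of miR-770-5p fell between its lowest and second lowest control value. Its difference was -0.68 (interval -1.14 to -0.22, adjusted p = 0.259, limma).

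The other 4 were seen on fewer arrays or had smaller differences. miR-432-5p, found on 4 control and 2 galectin-9 arrays, had a difference of -0.76 (interval -1.36 to -0.17, adjusted p = 0.30, limma). miR-381-5p, found on 4 and 4, had -0.81 (interval -1.49 to -0.14, adjusted p = 0.30, limma). miR-127-3p had -0.50 (interval -0.93 to -0.07, adjusted p = 0.318, limma), and miR-431-3p -0.38 (interval -0.71 to -0.05, adjusted p = 0.319, limma). Of the 6, miR-770-5p, miR-431-3p, miR-127-3p and miR-432-5p lie in the MEG3 and RTL1 stretch. They are 4 of 13 tested members upstream of the end of MEG8, and the other 2 are among 36 tested from miR-379 on. Of all tested probes, 8.65% were lower at an unadjusted p under 0.05. Whether the 2 stretches differ was not tested. With 1 floor for all arrays, set at that of control 6, 0 members were lower at an unadjusted p under 0.05, against 4.61% of all probes. The differences were then -0.09 for miR-770-5p, -0.03 for miR-654-3p, -0.0016 for miR-127-3p and 0 for the other 3, since values under the shared floor become equal. Without control 6, 4 of the 6 stayed under 0.05 unadjusted (8.16% of members against 6.4% of probes), namely miR-654-3p at -0.55, miR-770-5p at -0.64, miR-432-5p at -0.59 and miR-381-5p at -0.70. The adjusted p of these 4 was 0.362 or more (limma). Without control 6, miR-432-5p and miR-381-5p still held floor values on control 4 and on part of the galectin-9 arrays. miR-654-3p and miR-770-5p then held none.

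Within slides the size of these differences varied. miR-654-3p gave -1.08 on slide 1, -0.14 on slide 2 and -0.52 on slide 3. miR-770-5p gave -0.08, -0.96 and -0.99. miR-432-5p gave -0.21, -0.31 and -1.77, with control 6 on slide 3. miR-431-3p gave 0.02, -0.41 and -0.74, so its sign differed on slide 1. With 2 arrays of each group on a slide, no member passed the adjusted threshold within any slide (limma).

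**Figure D5:**
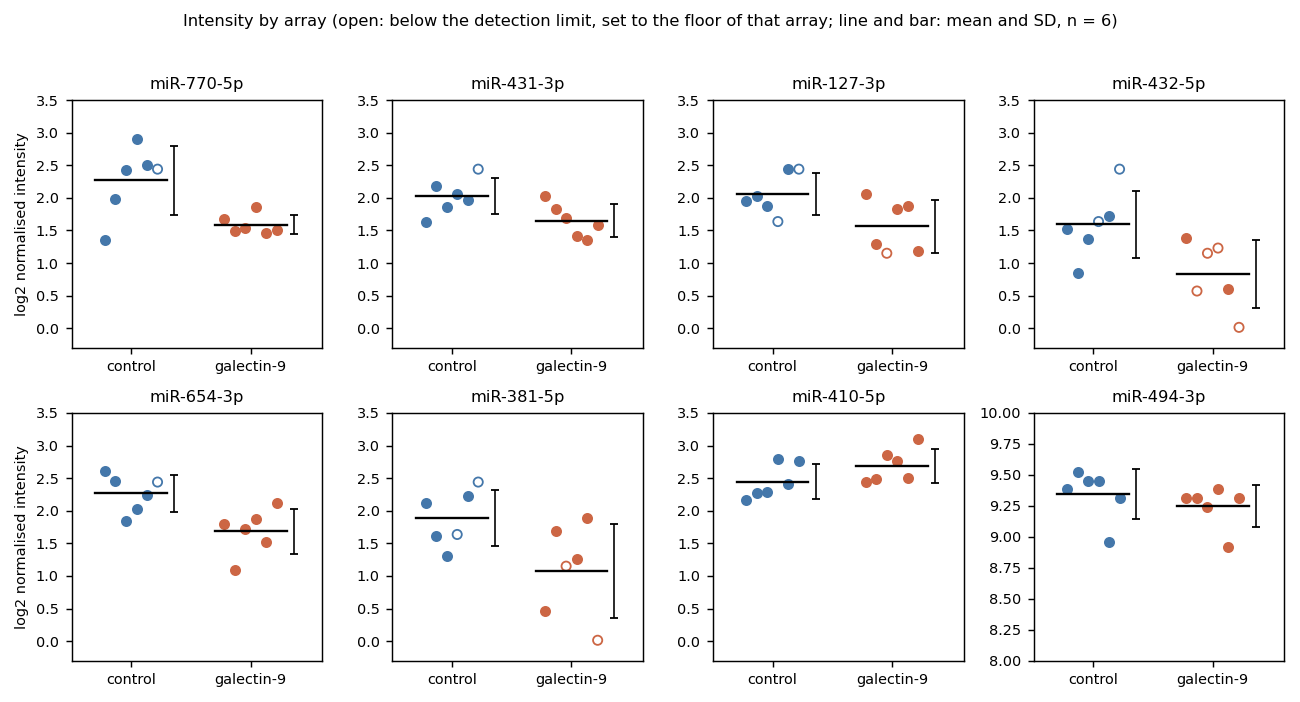
Log2 normalised intensity (y axis) of 8 members by group (x axis), 1 point per array in order of replicate number, filled where detected and open where set to the floor of its array, with the mean as a line and the SD as a bar (n = 6). In the first 6 panels control 6 is the open point at 2.44, and miR-494-3p, on an axis of its own that does not start at 0, has replicate 5 lowest in both groups.

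Of members with a higher mean in galectin-9 arrays, miR-433-5p was higher in 6 of 6 pairs, 1 of which held the floor of control 6. It lay at 2.04, 2.32 and 2.66 on control arrays and 2.17, 2.59 and 2.87 on galectin-9 arrays. The groups overlapped, and the difference was 0.24 (95% interval -0.06 to 0.55, adjusted p = 0.473, limma). miR-410-5p lay at 2.16, 2.35 and 2.79 and at 2.44, 2.64 and 3.10, higher in 5 of 6 pairs, with 0.24 (interval -0.08 to 0.57, adjusted p = 0.494, limma). miR-487a-5p lay at 3.48, 3.57 and 3.74 and at 3.62, 3.73 and 3.93, higher in 5 of 6 pairs, with 0.15 (interval -0.04 to 0.34, adjusted p = 0.475, limma). The largest difference above 0 was that of miR-889-5p, 0.28 (interval -0.24 to 0.80), found on 4 control and 6 galectin-9 arrays. With the common floor the differences were 0.13 for miR-433-5p, 0.14 for miR-410-5p and 0.08 for miR-889-5p.

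Members seen on 6 to 11 arrays varied more between arrays than those on all 12. The median pooled SD was 0.454 over the 29 and 0.280 over the 20, beside 0.457 and 0.209 over all such probes. Other well-studied members and low p-values gave differences of -0.53 for miR-379-3p, -0.50 for miR-433-3p, -0.43 for miR-380-5p, -0.06 for miR-665 and -0.02 for miR-485-3p, all with overlapping groups and an adjusted p of 0.443 or more (limma). No value for galectin-9 was fitted for miR-379-5p, miR-410-3p, miR-411-5p, miR-431-5p, miR-495-3p, miR-376a-3p, miR-376c-3p and miR-654-5p, which were on fewer than 6 arrays.

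Other imprinted or clustered miRNAs were read the same way. Of 8 tested probes of miRNAs at the MEST, H19, IGF2 and GNAS loci, 0 passed the adjusted threshold, with 2 higher and 2 lower at an unadjusted p under 0.05 (limma). Of 33 tested probes of the chromosome 19 cluster, a placental group of miRNAs, 0 passed, with 0 higher and 4 lower at an unadjusted p under 0.05. Over all tested probes 4.21% were higher and 8.65% lower at that level. That cluster had 7 of 59 probes (11.9%) on all 12 arrays. Of 4 tested probes of the same region outside the chosen families (miR-1193, miR-2392 and both arms of miR-1247), 0 passed and 0 had an unadjusted p under 0.05.

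Slide and position were compared in the same way. Neither was called for any of the 49 members (smallest adjusted p 0.164 for slide and 0.0961 for position, limma), beside 0.404% and 0.231% of tested probes. At an unadjusted p under 0.05 there were 2 members for slide (4.08%, against 8.59%) and 9 for position (18.4%, against 19%). In the fit to the 891 probes on all arrays, miR-329-5p passed for position (adjusted p = 0.0339, limma), 1 of 20 members against 7.18% of such probes. It lay at 2.36, 2.54, 2.42, 2.63, 2.19 and 2.49 on arrays at positions 1 and 2, and at 2.66, 3.13, 2.89, 2.80, 2.84 and 3.15 at positions 3 and 4. The positions did not overlap, and positions 3 and 4 were higher by 0.47 (95% interval 0.24 to 0.71). Positions 3 and 4 held only even replicate numbers and positions 1 and 2 only odd ones. Position thus cannot be told apart from odd or even replicate number, and the fit did not use pairs. Without normalisation, miR-493-3p (adjusted p = 0.0375, limma) and miR-889-5p (adjusted p = 0.0305, limma) passed for slide, beside 6.11% of tested probes.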

How the data were processed

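Per the labels' protocols, total RNA of KYSE150 cells was marked with Cy5 using a 3D-Gene kit. The authors' deposited array files hold raw, background-subtracted and globally normalised intensity on a linear scale, per the file headers. No source used here names a scanner. In the files, background is the average blank spot after trimming 5% at each end, and a subtracted value is listed where raw intensity exceeds it by 2 SD of those blanks. The authors' deposited series table holds intensity values of 891 probes, which are linear and quantile-normalised, with a median of 12.3 in every column.

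Raw intensity minus background was quantile-normalised over 2565 human probes, undetected values were set to the array's floor, and log2 was taken. Spots marked as not good were left out. Probes on at least 6 of 12 arrays (1734, 49 of them members) were tested with limma 3.58.1 in R 4.3.3 (lmFit, eBayes, two-sided, Benjamini-Hochberg at 0.05). The fits were for treatment, for slide with treatment in the model, and for position with treatment and slide in the model. The script was tested on simulated data. Arrays were grouped by their titles. The number of arrays limits the precision.

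Equal replicate numbers deviated together from the group means (correlation across probes from 0.171 to 0.527 for 6 of 6 pairs, median -0.04 for unlike numbers). They were taken as pairs for counting directions and for the replicate block. The main fit did not use pairs. The pairing comes from the data, and equal numbers also sit at neighbouring positions of a slide. Alternatives covered the filter, floor, background, normalisation, replicate and slide blocks, and left-out arrays and slides.

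Named are members past the threshold, the 8 lowest p-values in each direction, members on all arrays, members on none and a list of well-known ones. The members, lists and rules were chosen with earlier results of these data known. Mature sequences and gene spans are from RefSeq tables of GRCh38.p14. Sequences were handled with Python 3.11.15.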

Additional observations from a re-analysis of the deposited data

Results flagged for a closer look

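In 2 of 68 groups of 6 arrays tested over members, 1 array lay farther from the rest than Dixon's critical value at 95% allows, and chance gives about 1 in 20. Both concern miR-494-3p. On control 5 its log2 intensity was 8.96, with the other 5 control arrays between 9.31 and 9.52. On galectin-9 array 5 it was 8.92, with the other 5 between 9.24 and 9.39. Both arrays carry replicate number 5 and sit on slide 3.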

How the results depend on the processing

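The count of members called for galectin-9 was 0 in all 28 alternatives (limma). The count of all human probes called, 3 here, was 9 over probes detected on all 12 arrays, 9 with 1 common floor, 17 with normexp and an offset of 50, 9 in the authors' series table, 5 with a slide block and 1 with the replicate block. It was 2 to 5 with single arrays left out (5 without galectin-9 replicate 1), and 0 with slide 1, slide 2 or slide 3 left out or taken alone, where fewer arrays enter. The replicate block joined with probes on all 12 arrays, chosen after the data were seen, gave 22. The replicate block changed no member's call. The members' median log2 difference, -0.13, was -0.29 with no filter on dim probes, 0 with 1 common floor, -0.00080 without normalisation, -0.02 with normexp, 0.030 on slide 1 alone and -0.35 on slide 3 alone, and ran from -0.20 to -0.09 with single arrays left out. The slide effect, 7 probes, was called for 21 over probes on all 12 arrays and 106 without normalisation, and the position effect, 4 probes, for 64 and 9. An offset of 50 added to dim intensities shrinks their log2 differences by construction, for miR-770-5p from -0.68 to -0.05. Without the filter, probes on fewer than 6 arrays enter, and most of their values are floors by construction. Where no construction is named, the cause was not tested. Of 885 alternative values for 33 named members, 842 moved by less than 1 SD, 69 had the opposite sign and 6 were exactly 0. None passed the threshold (0 values), and 15 members never took the opposite sign. A move of less than 1 SD can still remove a whole difference. With the common floor, miR-379-3p went from -0.53 to 0 and miR-433-3p from -0.50 to 0, and both counted as within 1 SD. Their pooled SDs were 0.546 and 0.702. The 842 are therefore no measure of how stable the differences were. With a limit of 3 SD, the median number of members detected per array went from 52.5 to 43. For 12 of 20 members on all arrays the median signal lay under 5 times 2 SD of the blanks, which limits what a difference can show.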
